A study of Mus musculus with 6 samples.

Results

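The genes of blood coagulation and fibrinolysis were followed in the livers of mice on a high-fat diet, mice injected with carbon tetrachloride, and mice of each model given the peptide JT003. The set was defined by gene symbol from a list of 35 members, and all 35 were listed in every library, out of 18444 genes listed in at least 1 of the 6 libraries. By role, 18 members are procoagulant, 9 anticoagulant, 6 fibrinolytic and 2 (Hrg and Gas6) of several roles. Hepatocytes are known as the main source of 24 of them and other cells as the main source of 11.

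Coagulation is a cascade of proteases in which tissue factor with factor VII, or the contact system, leads through factors XI, IX and X to thrombin, which cuts fibrinogen into fibrin. Antithrombin, the protein C system and tissue factor pathway inhibitor hold the cascade in check, and plasmin, made from plasminogen by tissue-type or urokinase-type activators, dissolves fibrin. The liver makes most of these plasma proteins, while von Willebrand factor, factor VIII and thrombomodulin come mainly from endothelial cells. The fibrinogen chains are acute phase genes, whose transcription rises with interleukin-6.

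All mice were male, labelled C57BL/6 (C57BL/6J in the methods) and 6 to 8 weeks old when the models began. In the diet model, the SD library came from a control on chow diet for 16 weeks, the HFD library from liver labelled NASH after 16 weeks of high-fat diet, and the HFD plus JT003 library from the same diet with JT003, a peptide agonist of both adiponectin receptors, injected daily in the final 4 weeks. The methods describe high-fat diet alone as a fatty liver model and its combination with a methionine- and choline-deficient diet as the NASH model, and the labels do not say which of these diets the library labelled NASH had. The paper's account of the sequencing names livers of mice fed the high-fat diet, without the deficient diet. In the CCl4 model, corn oil alone (5 ml/kg) was the control, 20% carbon tetrachloride in corn oil, a hepatocyte toxin that leads to fibrosis, was given every 3 days for 6 weeks, and the CCl4 plus JT003 library had JT003 in addition for 3 weeks. Each condition has 1 library, and it is not stated if that RNA came from 1 animal or from a pool. There is therefore no replicate check: each test below compares the reads of 2 libraries and not the 2 conditions, and intervals cover counting error only.

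Each library held 19374236 to 20184557 rounded expected counts, the authors' estimates of the reads per gene. The members took 2.16% to 2.69% of them. The hepatocyte markers (Alb, Ttr, Apob, Cyp2e1 and others) were all detected in every library. Summed over each list in CPM (counts divided by the TMM-scaled library size), they reached 90588 to 109681, against 122 to 394 for endothelial markers, 82.1 to 472 for macrophage markers, 249 to 488 for stellate cell and myofibroblast markers, 332 to 693 for red blood cell genes, 26.9 to 159 for bile duct markers, 16.5 to 24.8 for neutrophil markers and 8.38 to 17.1 for megakaryocyte and platelet markers. In bulk tissue, fewer cells of a type and less RNA per cell cannot be told apart.

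The CCl4 library differed from other CCl4 counts of the authors, and it cannot be told which side is unusual. A comparison table of the authors has a CCl4 column whose sum is 2.97 times that of the CCl4 library, and no gene of the library exceeds it by more than 0.99 counts, so the column was taken as a pool that includes the library. What remains after subtraction, 39781089 counts, is called here the other CCl4 pool, and that it holds CCl4 livers without JT003 is inferred from these sums. Between the CCl4 library and this pool, 9 members were called 1.5-fold and all 9 were higher in the pool (background 4.91% of 17813 genes, or 3.54% higher), and 3 of them, Vwf, Thbd and Plat, were called 2-fold (background 1.66%, or 1.43% higher). The same pool had higher red blood cell genes (1639 against 340 summed CPM, and at most 693 in any library), macrophage markers (385 against 200) and endothelial markers (198 against 122). The part of these cells in the members' differences was not tested. Where a member's call differed with the pool in place of the library, the value with the pool is therefore given as well.

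The members spanned more than 4 orders of magnitude in level. On the FPKM scale, which divides reads by transcript length and library size, the fibrinogen chains led: Fgb (gene ID 110135) had a median of 2071 FPKM over the 6 libraries, Fgg (99571) 1675 and Fga (14161) 1332. Fgb was above Fgg, and Fgg above Fga, in each of the 6 libraries. High-molecular-weight kininogen (Kng1, 1004 FPKM), antithrombin (Serpinc1, 825), plasminogen (Plg, 761), prothrombin (F2, 736) and histidine-rich glycoprotein (Hrg, 657) followed. Factor XI (F11, 18.6 FPKM) had the lowest median of the hepatocyte members. Among the members made mainly by other cells, Gas6, a ligand of TAM receptors, had a median of 17.9 FPKM, and every other one stayed at or below 2.86 FPKM in each library. The lowest were the urokinase gene Plau (0.53 FPKM), its receptor Plaur (0.45), tissue-type plasminogen activator Plat (0.345) and the factor XIII A subunit F13a1 (0.095, from 2 to 10 counts). Summed over members, fibrinogen took 51.9% of the members' FPKM for SD, 50.6% for HFD, 38.5% for HFD plus JT003, 42.1% for corn oil, 39.4% for CCl4 and 41.5% for CCl4 plus JT003.

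**Figure D1:**
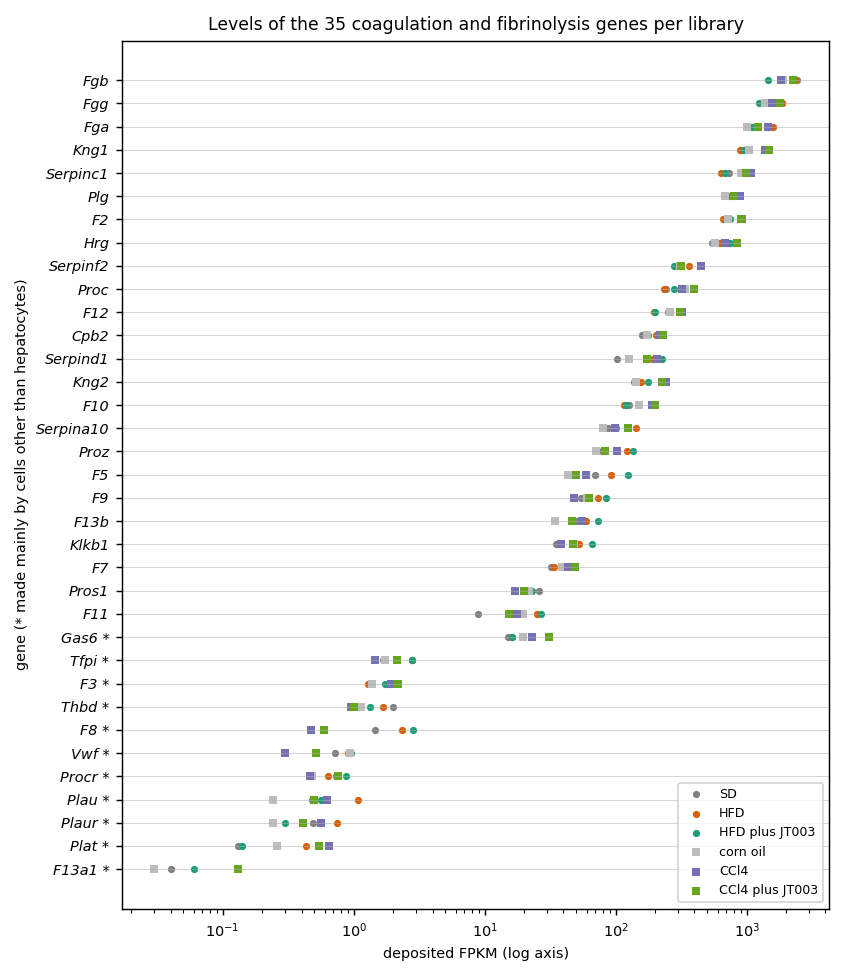
Deposited FPKM (log axis) of the 35 members, 1 row per gene in order of the median, with circles for the diet model, squares for the CCl4 model and an asterisk for members made mainly by cells other than hepatocytes. Fgb, Fgg and Fga sit at the top, at medians of 2071, 1675 and 1332 FPKM. By median, all members with an asterisk lie below the hepatocyte members, the highest being Gas6 at 17.9 FPKM, just below F11. In single libraries Gas6 could be higher: in CCl4 plus JT003 it had 30.92 FPKM, against 15.38 for F11 and 20 for Pros1.

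Few members differed in the 4 main comparisons, of each model library with its control and of each JT003 library with its model library. A gene was called 2-fold where the two-sided exact conditional binomial test gave a Benjamini-Hochberg adjusted p under 0.001 over all genes and the log2 ratio reached 1, and called 1.5-fold with the same p and a ratio of at least 1.5. From SD to HFD, 1 of 35 members was called 2-fold, F11, which was higher (background 5.44%, or 2.96% in the higher direction), and 2 were called 1.5-fold, F11 and heparin cofactor II (Serpind1), both higher (background 11.2%, or 5.63% higher). From HFD to HFD plus JT003, none was called 2-fold (background 1.67%) and 3 were called 1.5-fold, the fibrinogen chains, all lower (background 4.44%, or 2.35% lower). From corn oil to CCl4, 1 was called 2-fold, Vwf, which was lower (background 7.26%, or 2.46% lower), and 2 were called 1.5-fold, Vwf and protein S (Pros1), both lower (background 14.1%, or 5.75% lower). From CCl4 to CCl4 plus JT003, none was called 2-fold (background 4.46%) and none 1.5-fold (background 10.7%). The shares of members called were near or below these backgrounds, except for the 3 fibrinogen chains with JT003. The median log2 ratio over the members was 0.10, 0.08, 0.07 and 0.01 in the 4 comparisons, beside 0.00, -0.01, 0.00 and 0.00 over all genes tested.

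Comparisons of each JT003 library with its control, and of the controls with each other, gave the remaining distances. From SD to HFD plus JT003, 10 of 35 members were called 1.5-fold, 6 higher and 4 lower (background 13.4%, with 6.54% higher and 6.85% lower). This share of members was above the background. F11 and Serpind1 passed 2-fold too, both higher (background 5.98%, or 3.2% higher). From corn oil to CCl4 plus JT003, 2 were called 1.5-fold, Vwf and F11, both lower (background 9.57%, or 4.19% lower), with Vwf past 2-fold too (background 5.06%, or 1.77% lower). The controls themselves differed: from SD to corn oil, 4 members were called 1.5-fold (background 15.2%), F11 higher (6.62% of genes) and F8, F5 and Thbd lower (8.59%), of which F11 and F8 also passed 2-fold (background 5.52%, with 2.24% higher and 3.27% lower). These comparisons share their libraries with the 4 above.

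In all, 7 members were called 1.5-fold in at least 1 of the 4 comparisons and 28 in none. In the 4 comparisons no call held in edgeR's exact test at the same threshold when a biological coefficient of variation of 0.2 was assumed in place of counting error alone. With the other CCl4 pool in place of the CCl4 library, the counts changed: 4 members (F13a1, Plat, Plaur and Thbd) were called 2-fold from corn oil, all higher (background 9.65%, or 7.03% higher), and 9 were called 1.5-fold (background 17.6%), 7 higher (10.6% of genes), which were those 4 with Fga, Kng2 and Serpina10, and 2 lower (7.01%), Klkb1 and Proc. From the pool to CCl4 plus JT003 4 (Vwf, Thbd, Plat and Plaur) were called 2-fold, all lower (background 4.58%, or 3.28% lower), and 7 were called 1.5-fold, those 4 with F11, Fga and Serpinf2, all lower (background 10.9%, or 6.66% lower).

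**Figure D2:**
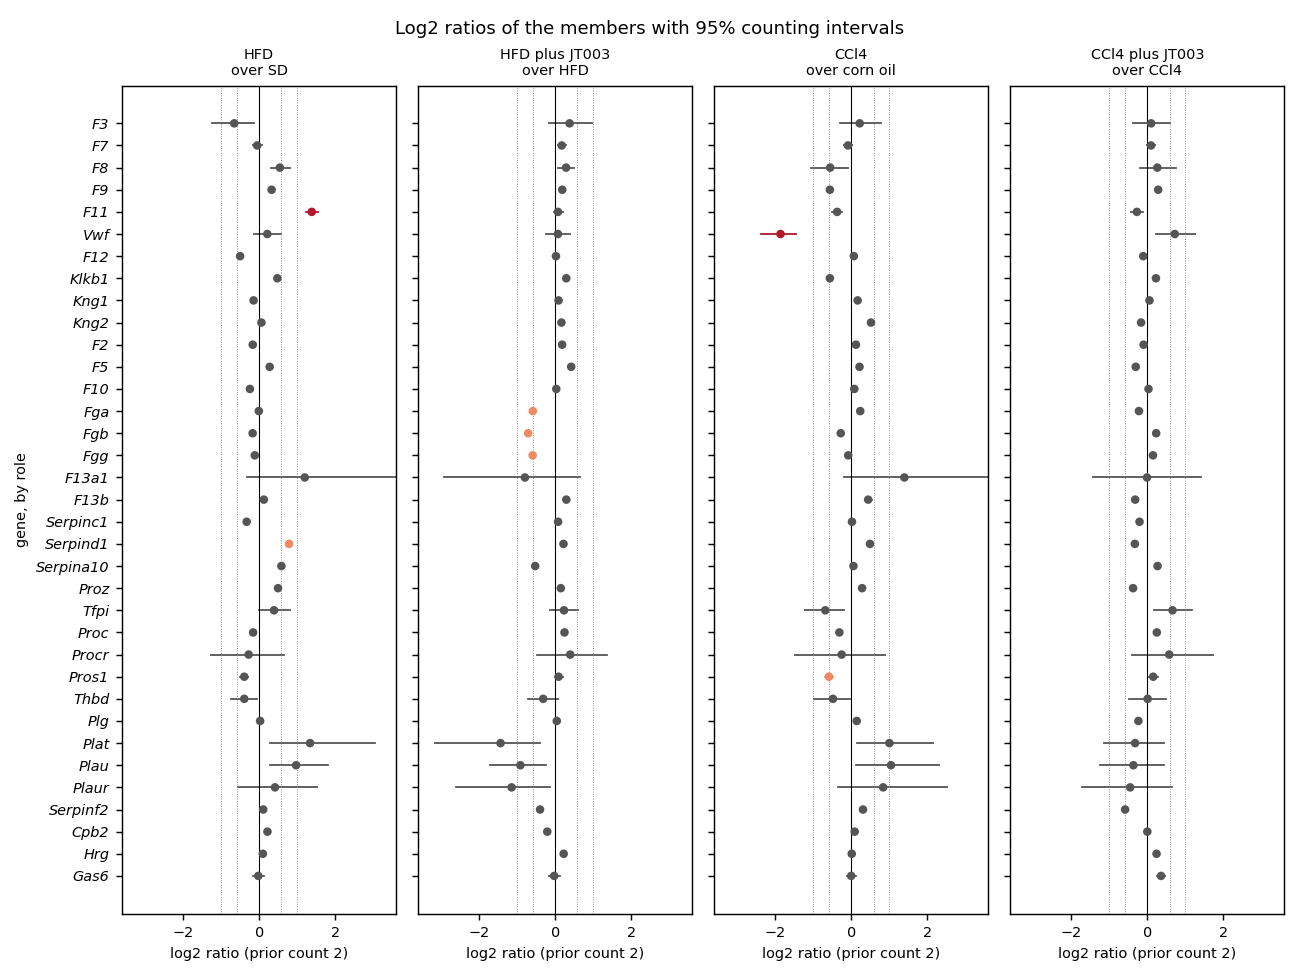
Log2 ratios (prior count 2) of the 35 members in the 4 comparisons, 1 panel each, ordered by role. Points are ratios, bars are 95% counting intervals (those of F13a1 run past the axis), dotted lines mark 1.5-fold and 2-fold, dark red marks members called 2-fold and orange those called 1.5-fold only. F11 at 1.38 in the first panel and Vwf at -1.86 in the third are the members called 2-fold, and the orange fibrinogen chains stand at -0.59 to -0.71 in the second.

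The fibrinogen chains are encoded by 3 neighbouring genes on mouse chromosome 3, and their products join in equal numbers into the clotting protein. Because these members moved together with JT003 in the diet model, the 250 bases before each transcription start are shown, from RefSeq on build GRCm38.p6 (the processing notes of the deposited files name mm9, and no coordinate was carried between the builds). Capitals mark CTGGGA, the core of the interleukin-6 response element known from fibrinogen genes. Each sequence is given on the gene's own strand: Fga at chr3:83025903-83026152 on the plus strand, Fgb at chr3:83049864-83050113 on the minus strand and Fgg at chr3:83007474-83007723 on the plus strand.
Fga: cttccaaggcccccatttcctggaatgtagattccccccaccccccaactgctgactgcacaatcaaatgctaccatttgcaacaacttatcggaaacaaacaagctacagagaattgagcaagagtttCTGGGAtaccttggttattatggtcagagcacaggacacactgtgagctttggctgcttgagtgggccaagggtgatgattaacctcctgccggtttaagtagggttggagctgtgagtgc
Fgb: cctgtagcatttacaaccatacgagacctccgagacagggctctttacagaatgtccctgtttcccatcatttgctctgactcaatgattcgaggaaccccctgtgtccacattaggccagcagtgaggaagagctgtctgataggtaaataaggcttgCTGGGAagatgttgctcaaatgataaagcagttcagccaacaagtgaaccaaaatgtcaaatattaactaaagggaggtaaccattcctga
Fgg: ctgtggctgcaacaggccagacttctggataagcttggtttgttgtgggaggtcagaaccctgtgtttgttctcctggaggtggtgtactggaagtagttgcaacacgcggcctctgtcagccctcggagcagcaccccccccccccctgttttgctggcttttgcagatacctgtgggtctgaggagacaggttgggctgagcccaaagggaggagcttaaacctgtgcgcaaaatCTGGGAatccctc

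Counted from the transcription start, CTGGGA lies at bases -121 to -116 of Fga, -91 to -86 of Fgb and -13 to -8 of Fgg. Searched on both strands, it occurs in 26.8% of the 27025 promoter windows of this length and in 10 of the 27 members that have one. GTTAAT, a half-site of the hepatocyte factor HNF1, was found on the minus strand at -43 to -38 of Fga and -29 to -24 of Fgb and not in Fgg, and it occurs in 6.52% of all windows and in 4 of the 27 member windows. TTNNGNAA, a loose form of the C/EBP motif, was found in Fga and Fgb as well, with 36.9% of all windows and 14 of the 27 member windows holding it. These motifs were chosen after the values were seen, and a match describes letters in the window and not a bound site.

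Fga, which encodes the fibrinogen alpha chain, stood at 4917 TMM-scaled CPM for SD, 4889 for HFD and 3251 for HFD plus JT003, and at 3850 for corn oil, 4440 for CCl4 and 3788 for CCl4 plus JT003. Fgb, the beta chain, stood at 4533, 4027 and 2462 in the diet model and at 3751, 3034 and 3545 in the CCl4 model, in the same order. Fgg, the gamma chain, stood at 3518, 3250 and 2156 in the diet model and at 2828, 2620 and 2886 in the CCl4 model. On this scale the HFD plus JT003 library was the lowest of all 6 for each of the chains, and SD and HFD were the highest for Fga, Fgb and Fgg. On deposited FPKM, Fga was lower in corn oil (998.59) than in HFD plus JT003 (1093.4). The CPM levels were scaled over all libraries and the pool together, whereas each log2 ratio was scaled within its model.

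From HFD to HFD plus JT003, the log2 ratio was -0.59 for Fga (95% counting interval -0.60 to -0.57), -0.71 for Fgb (-0.73 to -0.69) and -0.59 for Fgg (-0.61 to -0.57). Fgb was thus 1.64-fold lower. Fga and Fgg stood at the edge of the 1.5-fold rule, and with library sizes taken as total counts they fell short of it, at -0.57 and -0.58, so that Fgb alone was called. With log2 of FPKM plus 0.1 or plus 1 they fell short as well, at -0.54 for Fga and -0.58 for Fgg, and Fgb alone of the chains passed. Against SD, in a comparison that shares the HFD plus JT003 library, the ratios were -0.60, -0.88 and -0.71. Between SD and HFD the ratios of the chains were small, at -0.01, -0.17 and -0.11. Fibrinogen took 1.19% of all counts for SD, 1.22% for HFD and 0.797% for HFD plus JT003.

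In the CCl4 model the chains did not share a direction. Between corn oil and CCl4 the log2 ratio was 0.24 for Fga, -0.28 for Fgb and -0.08 for Fgg, and from CCl4 to CCl4 plus JT003 it was -0.22, 0.23 and 0.15, with no call at 1.5-fold. With total counts as library sizes the ratio of Fgg from corn oil to CCl4 turned to 0.15, and no chain was called. The FPKM of Fga relative to Fgb was 0.787 in the CCl4 library and 0.530 to 0.751 in the other 5. In the other CCl4 pool all of the chains were higher than in the CCl4 library, by log2 ratios of 0.55, 0.67 and 0.64. Relative to corn oil, Fga in the pool was called 1.5-fold higher (0.77), with 0.37 for Fgb and 0.54 for Fgg, and from the pool to CCl4 plus JT003 Fga was lower and called 1.5-fold (-0.76), with -0.42 for Fgb and -0.48 for Fgg. Of the 12 other acute phase genes on a list, 3 were called 2-fold lower from HFD to HFD plus JT003 (background 1.67%), Saa1 (-1.09), Saa2 (-1.33) and Lcn2 (-1.53), and the list's median was -0.54. From CCl4 to CCl4 plus JT003 the same 3 genes were higher, at 1.33, 1.67 and 1.83, and the list's median was 0.55. From the pool to CCl4 plus JT003 they stood at -0.10, -0.01 and -0.87, none called 2-fold, and the list's median was -0.22. Between the CCl4 library and the pool the list's median was 1.03, with 6 genes called 2-fold higher in the pool (background 1.66%, or 1.43% higher). In the diet model the list summed to 16066 CPM for SD, 12690 for HFD and 10308 for HFD plus JT003. Its sum was thus already lower in HFD than in SD, where the ratios of the fibrinogen chains were small.

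The remaining members of fibrin formation were the factor XIII subunits, which crosslink fibrin. F13b, the carrier subunit, was at 2418 counts for SD, 2804 for HFD and 3488 for HFD plus JT003, and at 1594, 2648 and 2138 in the corn oil, CCl4 and CCl4 plus JT003 libraries. Its log2 ratios ran from -0.32 to 0.44 in the 4 comparisons, none called. F13a1, the catalytic subunit, had 2 to 10 counts per library, so that no difference between libraries was detectable at this depth. With 57 counts in the larger CCl4 pool it was called 2-fold higher there than in corn oil, where it had 2 counts, too few for a fold.

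F11, the zymogen that activates factor IX, was the member with the largest called rise in the diet model. It stood at 21.8 scaled CPM for SD, 56.9 for HFD and 59.9 for HFD plus JT003, and at 51.1 for corn oil, 38.7 for CCl4 and 31.8 for CCl4 plus JT003. SD was the lowest of the 6 libraries and the other control, corn oil, was close to HFD. From SD to HFD, F11 (gene ID 109821) was 2.61-fold higher, a log2 ratio of 1.38 (1.22 to 1.55), and from HFD to HFD plus JT003 it differed by 0.07 (-0.04 to 0.19). SD and corn oil, both controls but unlike in diet and injection, differed in F11 by a log2 ratio of 1.23 (1.06 to 1.41), which is near the size of the rise with the diet and was called 2-fold. In the CCl4 model the ratio was -0.37 with CCl4 and -0.27 from CCl4 to CCl4 plus JT003, neither called, while the distance from corn oil to CCl4 plus JT003, -0.64, was called 1.5-fold. The other CCl4 pool, at 62.7 CPM, exceeded the CCl4 library by 0.71, and CCl4 plus JT003 was lower than that pool by a log2 ratio of -0.97, called 1.5-fold. F11 is a paralog of the prekallikrein gene Klkb1, and its expected counts were whole numbers in all 6 libraries, whereas 3 libraries had a fractional count for Klkb1.

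The other members around the tenase complex are F9, which encodes the protease factor IX, F8, its cofactor, and Vwf, which carries factor VIII in plasma and binds platelets. F9 was at 3006, 4019 and 4641 counts in the SD, HFD and HFD plus JT003 libraries, and at 3190, 2639 and 3240 in the corn oil, CCl4 and CCl4 plus JT003 libraries, with log2 ratios of -0.56 to 0.33 and no call. Under TMM factors over all 6 libraries F9 was called 1.5-fold lower from corn oil to CCl4. F8, made by endothelial cells, had 220, 343 and 425 counts in the diet model and 85, 70 and 85 in the CCl4 model. All diet libraries thus exceeded all CCl4 model libraries in F8, the controls included: SD and corn oil differed by a log2 ratio of -1.20, called 2-fold, while no main comparison of F8 was called. F8 from SD to HFD plus JT003 was called 1.5-fold higher, at 0.83 (0.60 to 1.08), and F8 in the other CCl4 pool was above the CCl4 library by 0.76, also called 1.5-fold. Endothelial markers were also lower in corn oil than in SD, by a median log2 ratio of -0.71, with 2 of 10 called 2-fold lower (background 5.52%, or 3.27% lower). The part of endothelial content in F8 was not tested.

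Vwf fell from corn oil to the CCl4 library. It stood at 7.0 scaled CPM for SD, 8.14 for HFD, 8.56 for HFD plus JT003, 9.86 for corn oil, 2.59 for CCl4 and 4.30 for CCl4 plus JT003, from 54 to 172 counts. The CCl4 library was the lowest, CCl4 plus JT003 the next, and the 4 others lay close together. Between corn oil and CCl4, Vwf (gene ID 22371) was 3.62-fold lower, a log2 ratio of -1.86 (-2.37 to -1.45). In the other CCl4 pool it was at 10.1 CPM, and the ratio from corn oil to that pool was 0.07 (-0.19 to 0.33), so that the fall was not seen in the pool. Vwf in CCl4 plus JT003, set against corn oil, was called 2-fold lower, at -1.14 (-1.54 to -0.78). With JT003, Vwf was higher than in the CCl4 library by 0.72 (0.24 to 1.26), which was not called, and lower than in the pool by a log2 ratio of -1.22 (-1.57 to -0.90), which was called 2-fold: the direction turned with the reference. The log2 ratios of all 10 endothelial markers were below 0 from corn oil to the CCl4 library, with a median of -0.75. Of these, 3 were called 2-fold lower (Kdr, Oit3 and Tek, background 7.26%, or 2.46% lower). The median of the endothelial markers was -0.12 from corn oil to the pool and -0.32 from corn oil to CCl4 plus JT003. The part of endothelial content in the fall of Vwf was not tested.

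**Figure D3:**
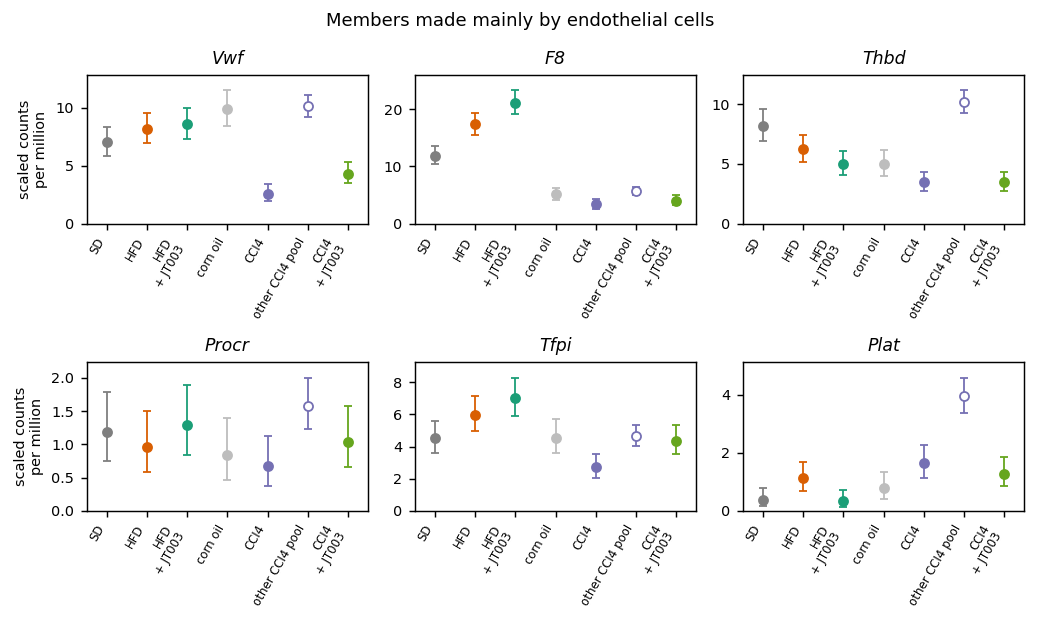
TMM-scaled CPM of Vwf, F8, Thbd, Procr, Tfpi and Plat, members made mainly by endothelial cells, in the 6 libraries (filled points) and in the other CCl4 pool (open point), with 95% Poisson intervals of the counts and axes from 0. Vwf in the CCl4 library (2.59) lies below corn oil (9.86) and below the pool (10.1), and F8 is higher in the 3 diet libraries than in every CCl4 model library.

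Tissue factor (F3), the cell-surface trigger of coagulation, had 48 to 79 counts per library, and its protease partner factor VII (F7) had 1220 to 1777. The log2 ratio of F3 from SD to HFD was -0.65 (-1.23 to -0.13), not called, and its other main ratios were 0.10 to 0.38. The main ratios of F7 were -0.09 to 0.17.

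The contact system members are F12, Klkb1 (prekallikrein) and the kininogen genes Kng1 and Kng2. F12 had 10097 counts for SD, 7608 for HFD, 7831 for HFD plus JT003, 9946 for corn oil, 12731 for CCl4 and 11901 for CCl4 plus JT003. Its largest main log2 ratio was -0.50 from SD to HFD. Klkb1 had 3732, 5540 and 6884 counts in the SD, HFD and HFD plus JT003 libraries, log2 ratios of 0.48 and 0.29. In the CCl4 model Klkb1 had 4975, 4113 and 4848 counts, log2 ratios of -0.56 and 0.23. None of these ratios was called, but from SD to HFD plus JT003 Klkb1 was called 1.5-fold higher (0.77), and from corn oil to the other CCl4 pool 1.5-fold lower (-0.70). Under TMM factors over all 6 libraries Klkb1 was called 1.5-fold lower from corn oil to CCl4. Under total counts it was called 1.5-fold higher from SD to HFD.
Kng1 and Kng2 share sequence: 20.7% of the 50-base words of Kng2 transcripts occur in Kng1, their expected counts were fractional in all 6 libraries, and their sum was whole within 0.01 in each. The level of either gene alone is therefore uncertain. As deposited, Kng2 stood at 0.152 of the FPKM of Kng1 in SD and at 0.136 to 0.184 in the other libraries, and the largest main ratio was 0.52, for Kng2 from corn oil to CCl4, which was not called. With the pool in place of that library the ratio of Kng2 was 0.62 and called 1.5-fold.

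The prothrombinase members, prothrombin (F2), its activating protease factor X (F10) and the cofactor factor V (F5), passed no threshold in the main comparisons. F2 had 26610 to 38334 counts and log2 ratios of -0.17 to 0.18. F10 had ratios of -0.24 to 0.08. F5 had 10676, 13778 and 18718 counts in the SD, HFD and HFD plus JT003 libraries, log2 ratios of 0.28 and 0.42, and the sum of these steps, from SD to HFD plus JT003, was called 1.5-fold higher (0.70). In the CCl4 model F5 had 6357, 9024 and 7362 counts, log2 ratios of 0.22 and -0.30. Corn oil was below SD in F5 by a log2 ratio of -0.60, called 1.5-fold.

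Serpind1 was the anticoagulant member with a called rise. This serpin, heparin cofactor II, inhibits thrombin when bound to dermatan sulfate or heparin. It stood at 245 scaled CPM for SD, 423 for HFD and 492 for HFD plus JT003, and at 323 for corn oil, 445 for CCl4 and 353 for CCl4 plus JT003. SD was the lowest library, corn oil the next, and every model library exceeded its own control. Between SD and HFD, Serpind1 (gene ID 15160) was 1.72-fold higher, a log2 ratio of 0.79 (0.73 to 0.84), and called 1.5-fold. From HFD to HFD plus JT003 the ratio was 0.22, so that SD and HFD plus JT003 differed by 1.00, called 2-fold (background 5.98%, or 3.2% higher). The ratio from corn oil to CCl4 was 0.49 and not called, with 0.55 for the pool in place of the library, and from CCl4 to CCl4 plus JT003 it was -0.33. The controls differed by 0.40, also not called. With total counts as library sizes the corn oil to CCl4 ratio of Serpind1 became 0.72 and passed the 1.5-fold rule.

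Among the other inhibitors, antithrombin (Serpinc1), the main inhibitor of thrombin and factor Xa, had 27546 to 47848 counts and main log2 ratios of -0.33 to 0.08. Serpina10, the inhibitor of factor Xa that acts with protein Z, had 2859 counts for SD, 4566 for HFD and 3222 for HFD plus JT003. Its ratios were 0.58 and -0.53, neither called, and the HFD library stood above both others. The ratio from SD to HFD lies just under the 1.5-fold rule, and under the size factors of DESeq2, or total counts, Serpina10 was called 1.5-fold higher. In the CCl4 model Serpina10 had 2534, 3221 and 3910 counts, with no call, while from corn oil to the other CCl4 pool it was called 1.5-fold higher, at 0.59, at the edge of the rule. The cofactor protein Z (Proz) had 3836, 5766 and 6486 counts in the diet model, and the ratio of SD to HFD plus JT003 was called 1.5-fold higher (0.64). Tissue factor pathway inhibitor (Tfpi) had 57 to 141 counts, main ratios of -0.68 to 0.66 and no call, and the other CCl4 pool exceeded the CCl4 library in it by 0.78, called 1.5-fold.

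Pros1, the vitamin K-dependent cofactor of activated protein C, was lower in the CCl4 library. It stood at 94.1 scaled CPM for SD, 71.7 for HFD, 76.3 for HFD plus JT003, 84.9 for corn oil, 55.4 for CCl4 and 61.4 for CCl4 plus JT003. In each model the control was the highest of the 3. The log2 ratio of Pros1 (gene ID 19128) from corn oil to CCl4 was -0.59 (-0.70 to -0.47), at the edge of the 1.5-fold rule, and from SD to HFD it was -0.39 (-0.49 to -0.29), not called. With total counts as library sizes the ratio of Pros1 to corn oil was -0.35 and not called. The other CCl4 pool stood at 87.9 CPM, and its ratio to corn oil was 0.08 (-0.01 to 0.16), so that the lower level was not seen in the pool. In CCl4 plus JT003 the ratio of Pros1 to corn oil was -0.43, not called.

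The other genes of the protein C system were not called in the main comparisons. Protein C itself (Proc) had 7359 to 12259 counts and main ratios of -0.31 to 0.25, but with the pool in place of the CCl4 library it was called 1.5-fold lower than in corn oil (-0.65), and from the pool to CCl4 plus JT003 the ratio was 0.58 and not called. The endothelial protein C receptor (Procr) had 14 to 26 counts, too few to detect differences such as these. Thrombomodulin (Thbd), which turns thrombin towards protein C, had 152, 123 and 100 counts in the SD, HFD and HFD plus JT003 libraries and 83, 72 and 73 in the corn oil, CCl4 and CCl4 plus JT003 libraries. The ratio of SD to HFD plus JT003 in Thbd was -0.71 (-1.10 to -0.34), called 1.5-fold lower, and corn oil was lower than SD by the same log2 ratio of -0.71. The other CCl4 pool had 444 counts of Thbd and exceeded the CCl4 library by a log2 ratio of 1.56 (1.21 to 1.95) and corn oil by 1.05, and CCl4 plus JT003 was lower than the pool in Thbd, at -1.54, each called 2-fold.

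**Figure D4:**
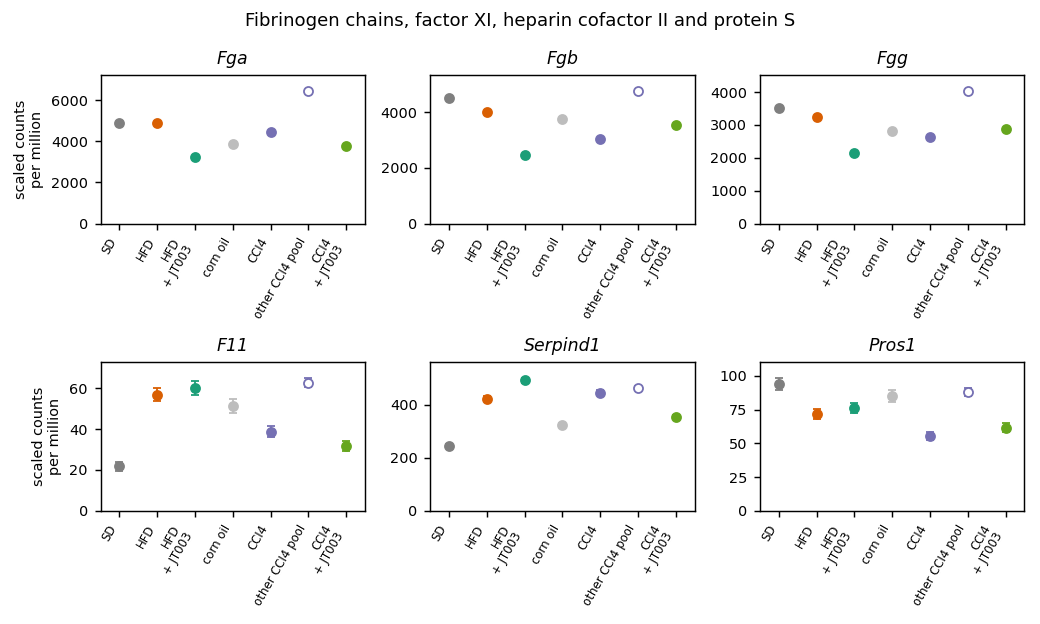
TMM-scaled CPM of the fibrinogen chains Fga, Fgb and Fgg, of factor XI (F11), heparin cofactor II (Serpind1) and protein S (Pros1) in the 6 libraries (filled points) and in the other CCl4 pool (open point), with 95% Poisson intervals of the counts and axes from 0. HFD plus JT003 is the lowest library for each fibrinogen chain (3251, 2462 and 2156), SD is the lowest for F11 (21.8) and Serpind1 (245), and CCl4 is the lowest for Pros1 (55.4).

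On the fibrinolytic side, plasminogen (Plg), the precursor of plasmin, had 37089 to 50040 counts and main log2 ratios of -0.23 to 0.14. Its activators and their receptor were at the bottom of the range. Plat had 7 counts for SD, 22 for HFD and 7 for HFD plus JT003, and 13, 34 and 27 in the corn oil, CCl4 and CCl4 plus JT003 libraries. Plau had 23, 50 and 26 counts in the diet model and 11, 30 and 23 in the CCl4 model. Plaur had 15, 22 and 9 counts, and 7, 17 and 12. For each of these genes the model library held the highest count of its 3 libraries, yet no difference passed the test: the largest main log2 ratio was -1.43 for Plat from HFD to HFD plus JT003, with an interval of -3.15 to -0.40 and an adjusted p of 0.0225. In the larger CCl4 pool the counts were 172 for Plat, 79 for Plau and 83 for Plaur. In that pool, relative to corn oil, Plat was called 2-fold higher (2.27, 1.56 to 3.31) and Plaur as well (2.05), and from the pool to CCl4 plus JT003 they were called 2-fold lower, at -1.57 and -1.64. Macrophage markers summed to 385 CPM in the pool, 82.1 in corn oil and 325 in CCl4 plus JT003, and stellate cell and myofibroblast markers to 635, 249 and 334. Endothelial markers summed to 198, 212 and 190 CPM in the same order, so they were not higher in the pool than in corn oil. The part of these cell types in the differences of Plat and Plaur was not tested.

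The inhibitors of fibrinolysis are alpha2-antiplasmin (Serpinf2), which blocks plasmin, and Cpb2 (TAFI), which trims the sites where plasminogen binds fibrin. Serpinf2 had 13882, 15938 and 12287 counts in the SD, HFD and HFD plus JT003 libraries, log2 ratios of 0.11 and -0.40, and 13245, 20016 and 13455 in the corn oil, CCl4 and CCl4 plus JT003 libraries, log2 ratios of 0.31 and -0.58. The model library was the highest in each model. The last of these ratios lies just under the 1.5-fold rule, and under the size factors of DESeq2, or TMM factors over all 6 libraries, Serpinf2 was called. Against the other CCl4 pool the CCl4 plus JT003 library was lower by a ratio of -0.70 in Serpinf2, called 1.5-fold. Cpb2 had 4830 to 6684 counts and main ratios of -0.21 to 0.22. Hrg, which binds heparin and plasminogen, had 19146 to 28937 counts and main ratios of 0.01 to 0.24, and Gas6 had 796 to 1566 counts and main ratios of -0.03 to 0.36, none called.

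A further list of 34 genes of the pathway outside the members held other inhibitors and binders of fibrinolysis, protease inhibitors, receptors, related proteases and genes of the vitamin K cycle, and 33 of them could be tested in each main comparison. Between the SD and HFD libraries 1 of them, Anxa2, was called 2-fold higher (background 5.44%, or 2.96% higher), with 198 counts in SD and 504 in HFD (1.25). Anxa2 is an annexin that binds tissue-type plasminogen activator and plasminogen at the cell surface. From HFD to HFD plus JT003 3 of the listed genes were called 2-fold lower and 1 higher (background 1.67%). The lower ones included Anxa2, from 504 to 229 counts (-1.15), and its partner S100a10, from 1915 to 790 (-1.30). The higher one was the fibrinogen-like gene Fgl2, from 55 to 119 counts (1.06). From corn oil to CCl4 (background 7.26%, or 2.46% lower) Anxa2 was higher, from 137 to 816 counts (2.27), and Serpine2, an inhibitor of thrombin and plasminogen activators, lower, from 258 to 110 (-1.50), with -0.99 and no 2-fold call for the pool. From CCl4 to CCl4 plus JT003 1 was called 2-fold (background 4.46%), Anxa2, which was lower, from 816 to 339 counts (-1.27). Anxa2 was thus called higher in both model libraries and lower with JT003 in each, with the model library shared by the rise and the fall. The same held with the pool in place of the CCl4 library (2.62 and -1.63), and both ratios then share the pool. The summed CPM of the stellate cell and myofibroblast markers moved the same way: 258 for SD, 447 for HFD and 349 for HFD plus JT003. In the CCl4 model the sum was 249 in its control, 488 without JT003 and 334 with it. Of the 10 genes on that list, Col1a1, Col1a2 and Col3a1 were called 2-fold higher from SD to HFD (background 5.44%, or 2.96% higher). They were called 2-fold lower with JT003 in that model (background 1.67%). The values of the other listed markers are not reported here, and a sum can be carried by its most abundant genes. The part of stellate cells and myofibroblasts in the differences of Anxa2 and S100a10 was not tested.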

How the data were processed

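Liver RNA of 6 libraries was sequenced on a BGISEQ-500. The authors deposited an expected count (an estimated count of the reads of a gene, not normalized) and an FPKM value per gene and library. The submitters' processing notes name HISAT, Bowtie2, RSEM and build mm9. Annotation, versions and use of strand are not given in the sources used here. The authors' comparison tables hold log2 ratios, p-values and adjusted values, which were not used, and 7 other expression columns in them were not used here. Their pooled CCl4 column of expected counts was used less the CCl4 library.

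Expected counts were rounded. Within each model, TMM factors (edgeR 4.0.16 under R 4.3.3) scaled the library sizes. With 1 library per condition no spread can be fitted, so genes with at least 1 count entered a conditional binomial test (exact, two-sided, scipy 1.17.1), and p-values were adjusted over all genes by Benjamini-Hochberg. Calls needed an adjusted p under 0.001 and a ratio of 2 or 1.5 (prior count 2). Intervals are 95% Clopper-Pearson. The steps were tested on simulated data. Python 3.11.15, numpy 2.4.6, pandas 2.3.3 and matplotlib 3.10.9 were used, and promoters came from RefSeq (GRCm38.p6).

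The members and all lists (pathway, regulators, acute phase, cell type markers) were chosen with earlier results of these data known. Values in every library were given for members called 2-fold in a main comparison, or 1.5-fold with at least 100 counts, and other members by range and count. Genes outside the members were named from the lists where called 2-fold, and the values of some listed genes are not reported here. Further values, of members singled out after their values were seen, are those of F8, Thbd, F5, Klkb1, Serpina10, Proz, Serpinf2, F9, F12, F13b and the plasminogen activators. Alternatives were total counts, DESeq2 1.42.0 size factors, TMM over all 6 libraries, a minimum of 10 counts, a prior count of 0.5, the exact test of edgeR assuming a biological coefficient of variation (BCV) of 0.2 and of 0.4, log2 of FPKM plus 0.1 or 1, and the other CCl4 pool.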

Additional observations from a re-analysis of the deposited data

Results flagged for a closer look

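F11 differed in its change between the models: its log2 ratio of model over control was 1.38 from SD to HFD and -0.37 from corn oil to CCl4, a difference of 1.75. Klkb1 did so too, with 0.48 from SD to HFD and -0.56 from corn oil to CCl4, a difference of 1.04. The models differ in diet, injection and duration as well, and each ratio rests on 2 libraries, so these differences were not tested. From corn oil to the other CCl4 pool the log2 ratio was 0.32 for F11 and -0.70 for Klkb1, so that with the pool both ratios of F11 were above 0.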

How the results depend on the processing

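With 1 library per condition there is no estimate of the spread between mice, so a call says only that 2 libraries differ beyond counting error. No paired analysis was possible because each condition has 1 library. Of the log2 ratios of the 7 members called in a main comparison (Fga, Fgb, Fgg, F11, Serpind1, Pros1 and Vwf) under the alternatives, 232 kept their call, or lack of one, 24 lost a call, 7 gained one (by fold alone for FPKM) and 3 turned sign with a call on one side. Most of these ratios had no call in the main analysis, and for them a kept result means only that no call appeared. The tally is therefore no measure of how often a call held. The cause of the changes below was not tested.

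From SD to HFD, 2-fold and 1.5-fold calls of members were 1 and 2, with a median of 0.10. Total counts gave 6 calls at 1.5-fold, with F8, Klkb1, Proz and Serpina10 added. They gave a median of 0.22 and moved the median of all genes to 0.12. The size factors of DESeq2 gave 3 at 1.5-fold, with Serpina10 added. FPKM plus 0.1, with no test, gave 3 and 10 members past the folds and a median of 0.22, and FPKM plus 1 gave 5 at 1.5-fold. From HFD to HFD plus JT003, with 0 and 3 calls, total counts gave 1 at 1.5-fold and FPKM plus 1 gave 1 at 1.5-fold, each time Fgb. FPKM plus 0.1 gave 2 at 2-fold and 4 at 1.5-fold, which were Fgb, Plat, Plau and Plaur. From corn oil to CCl4, with 1 and 2 calls and a median of 0.07, total counts gave 4 at 1.5-fold and a median of 0.30 (all genes 0.23). TMM over 6 libraries gave 4 at 1.5-fold, with F9 and Klkb1 added, both lower. FPKM plus 0.1 gave 3 and 8 with a median of 0.31, and FPKM plus 1 gave 0 at 2-fold with a median of 0.29. The other CCl4 pool gave 4 and 9 with a median of 0.25, and turned Pros1 to 0.076 and Vwf to 0.066. From CCl4 to CCl4 plus JT003, with no call and a median of 0.01, the size factors of DESeq2 and TMM over 6 libraries gave 1 at 1.5-fold, FPKM plus 0.1 gave 2, and the pool gave 4 and 7 with a median of -0.29 and turned Vwf from 0.72 to -1.22. Total counts gave 4 members at 1.5-fold from corn oil to CCl4 plus JT003, in place of 2. The exact test of edgeR with a BCV of 0.2 and of 0.4 left 0 calls in each of the 4 main comparisons, the only ones it was run on.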

Other observations

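On a list of 11 regulators of hepatocyte and acute phase transcription, Il6ra, which encodes the interleukin-6 receptor, was called 2-fold higher from SD to HFD (background 5.44%, or 2.96% higher), with 354 and 804 counts (1.09). None was called 2-fold from HFD to HFD plus JT003 (background 1.67%), and neither was any fibrinogen chain, since the chains passed only the 1.5-fold rule there. The relation of the regulators to fibrinogen was not tested. From corn oil to CCl4 (background 7.26%, or 2.46% lower), Onecut1, a hepatocyte transcription factor, and Socs3, a feedback inhibitor of interleukin-6 signalling, were called 2-fold lower, at -1.40 and -1.09. From CCl4 to CCl4 plus JT003 (background 4.46%) both were called 2-fold higher, at 1.44 and 1.13. With the other CCl4 pool in place of the library Onecut1 stood at -1.80 and 1.83, both called 2-fold (background 9.65% and 4.58%), and Socs3 at -0.83 and 0.86, neither called 2-fold. The comparisons share the CCl4 library. The 8 vitamin K-dependent members had a median log2 ratio of -0.11, 0.16, -0.04 and 0.13 in the 4 comparisons, and Pros1 from corn oil to CCl4 was the only call among them.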
